A study of Mus musculus with 8 samples.

Results

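The circadian clock genes described here are 10 genes of the transcriptional clock, namely Arntl, Npas2, Per1, Per2, Per3, Cry1, Nr1d1, Nr1d2, Dbp and Ciart, taken by gene symbol from the colon and ileum tables. All 10 were listed in both tables, out of 40178 genes listed in either of them. RNAseq was performed on intestinal epithelial cells (IECs), the cells that EDTA releases from the gut wall, of 2 WT and 2 DDX5KO mice, with 1 colon and 1 ileum library per mouse and 8 libraries in all. WT mice were DDX5(+/+), Vil1Cre(+) and DDX5KO mice were DDX5(fl/fl), Vil1Cre(+), so both groups carried a Cre transgene driven by the villin promoter, which is active in gut epithelium. DDX5 is a DEAD-box RNA helicase. The mice were littermates of 8 weeks, and no treatment was given. Each mouse gave the colon and the ileum library that share its genotype and number, and is called here WT mouse 1, WT mouse 2, DDX5KO mouse 1 or DDX5KO mouse 2. The study describes pairs of littermates and a covariate for differences in harvest, but the labels do not say which mice were harvested together or at what time of day.

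The mammalian clock is a feedback loop of transcription. BMAL1, the product of Arntl, pairs with CLOCK or with NPAS2 and activates the Per, Cry, Nr1d, Dbp and Ciart genes through DNA elements called E-boxes. PER and CRY proteins then repress that activity, REV-ERB proteins (from Nr1d1 and Nr1d2) repress Arntl and Npas2, and DBP activates genes with D-boxes, so that Arntl and Npas2 peak at about the opposite time of day to Nr1d1 and Dbp. The loop runs in gut epithelium as in most tissues, and feeding is known to shift it there.

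Library depth ranged from 11571061 to 22984283 counts. CPM here are the counts of a gene relative to the depth of its library, adjusted with TMM factors over all 8 libraries. Ddx5 was at 326 to 367 CPM in the 4 DDX5KO libraries and at 700.3 to 771 CPM in the 4 WT libraries, with a log2 fold change of -1.04 in the colon (adjusted p = 0.0866) and -1.07 in the ileum (adjusted p = 0.0270, edgeR quasi-likelihood test). Epithelial markers (Epcam, Cdh1, Vil1, Krt8 and Krt20) summed to between 7845 and 14786 CPM, and the stromal list to between 2.57 and 13.6 CPM. Repeat-like genes (Gm10800, Gm10801 and Gm21738) took 19.5% of the counts of the ileum library of DDX5KO mouse 2, between 3.93% and 4.05% of those of the WT ileum libraries and at most 0.261% of each of the others.

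The activators were lowest in DDX5KO mouse 1 in both tissues. Arntl (chr7:113207465-113314126, + strand) was at 56.5 and 72.4 CPM in the colon of WT mice 1 and 2 and at 39.2 and 78.1 CPM in that of DDX5KO mice 1 and 2. Its ileum levels were 50.3 and 65.4 CPM in WT and 28.0 and 61.3 CPM in DDX5KO mice 1 and 2. DDX5KO mouse 1 was thus below the other 3 mice in each tissue, while the log2 ratio of DDX5KO mouse 2 to WT mouse 2 was 0.11 in the colon and -0.09 in the ileum. Npas2 (chr1:39193731-39363236, + strand), whose product can stand in for CLOCK, was at 24.0 and 27.0 CPM in WT colon and at 16.1 and 29.8 CPM in DDX5KO colon. Ileal Npas2 was at 40.7 and 50.6 CPM in WT and at 25.5 and 44.2 CPM in DDX5KO. The order of the mice was that seen for Arntl, with DDX5KO mouse 1 lowest.

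The period genes, which encode repressors of the activator pair, were highest in DDX5KO mouse 1 in both tissues. Per1 (chr11:69095217-69109960, + strand) was at 17.2 and 13.0 CPM in WT colon and at 25.5 and 9.84 CPM in DDX5KO colon. In the ileum the WT values were 11.9 and 11.2 CPM and the DDX5KO values 16.9 and 11.5 CPM. DDX5KO mouse 1 was highest in both tissues, while DDX5KO mouse 2 was lowest in the colon and between the WT mice in the ileum. Per2 (chr1:91415982-91459324, - strand) was at 9.87 and 20.7 CPM in WT colon against 34.9 and 13.0 CPM in DDX5KO colon. Its ileum values were 18.9 and 23.4 CPM in WT and 52.8 and 16.9 CPM in DDX5KO. DDX5KO mouse 2 had the lowest ileal Per2 of the 4 mice and DDX5KO mouse 1 the highest. Per3 (chr4:151003652-151044665, - strand) was at 19.3 and 13.6 CPM in WT colon and 53.0 and 18.6 CPM in DDX5KO colon. Ileal Per3 was lower throughout, at 9.97 and 7.77 CPM in WT and 17.2 and 7.71 CPM in DDX5KO. Only DDX5KO mouse 1 stood above the WT mice.

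Cry1 (chr10:85131700-85185064, - strand), a cryptochrome repressor that peaks later than the period genes in most tissues, was the exception. Its colon levels were 19.1 and 27.4 CPM in WT and 10.2 and 27.8 CPM in DDX5KO, lowest in DDX5KO mouse 1. In the ileum the WT levels were 16.6 and 26.4 CPM and the DDX5KO levels 23.0 and 26.3 CPM, and DDX5KO mouse 1 lay between the WT mice.

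The REV-ERB genes, which encode nuclear receptors that repress Arntl, were highest in DDX5KO mouse 1 and second in WT mouse 1. Nr1d1 (chr11:98767932-98775333, - strand) was at 29.0 and 15.5 CPM in WT colon and at 63.9 and 21.2 CPM in DDX5KO colon. The ileum gave 44.3 and 25.5 CPM in WT and 61.1 and 34.0 CPM in DDX5KO. Nr1d1 shares 263 exon bases, 8.55% of its exon length, with Thra on the opposite strand, and Thra was at 26.6 to 31.3 CPM in the colon and 49.6 to 53.6 CPM in the ileum, lowest in DDX5KO mouse 1 in each. Nr1d2 (chr14:18204054-18239127, - strand) was at 61.1 and 27.6 CPM in WT colon and 96.9 and 42.7 CPM in DDX5KO colon. Its ileal values were 52.0 and 34.3 CPM in WT and 77.9 and 30.3 CPM in DDX5KO. For both genes the 2 WT mice also differed from each other, in the same direction in colon and ileum.

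Dbp and Ciart had the widest spread. Dbp (chr7:45705088-45710203, + strand), a clock output factor that binds D-boxes, was at 3.68 and 2.02 CPM in WT colon and at 35.7 and 2.83 CPM in DDX5KO colon, from 70, 46, 647 and 62 counts. Its ileum levels were 4.38 and 1.94 CPM in WT and 23.9 and 2.57 CPM in DDX5KO, from 95, 28, 255 and 24 counts. DDX5KO mouse 1 had 12.6 times the colonic and 9.30 times the ileal Dbp level of DDX5KO mouse 2, whose own level lay between those of the WT mice in each tissue. Dbp shares 539 exon bases, 18.0% of its exon length, with Sphk2 on the opposite strand. Sphk2 varied from 51.3 to 68.7 CPM in the colon, highest in DDX5KO mouse 1 as Dbp was. In the ileum it varied from 44.5 to 59.8 CPM, highest in WT mouse 1. Ciart (chr3:95878503-95882251, - strand), which encodes a repressor of the activator pair, was at 0.473 and 0.132 CPM in WT colon and 4.86 and 0.638 CPM in DDX5KO colon, from 9, 3, 88 and 14 counts. Ileal Ciart was at 0.415 and 0.486 CPM in WT and 3.28 and 0.857 CPM in DDX5KO, from 9, 7, 35 and 8 counts. Ciart was the one member whose DDX5KO libraries both lay above both WT libraries, which held in each tissue. The genotypes did not overlap for 44.6% of all genes tested in the colon and 39.5% in the ileum.

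**Figure D1:**
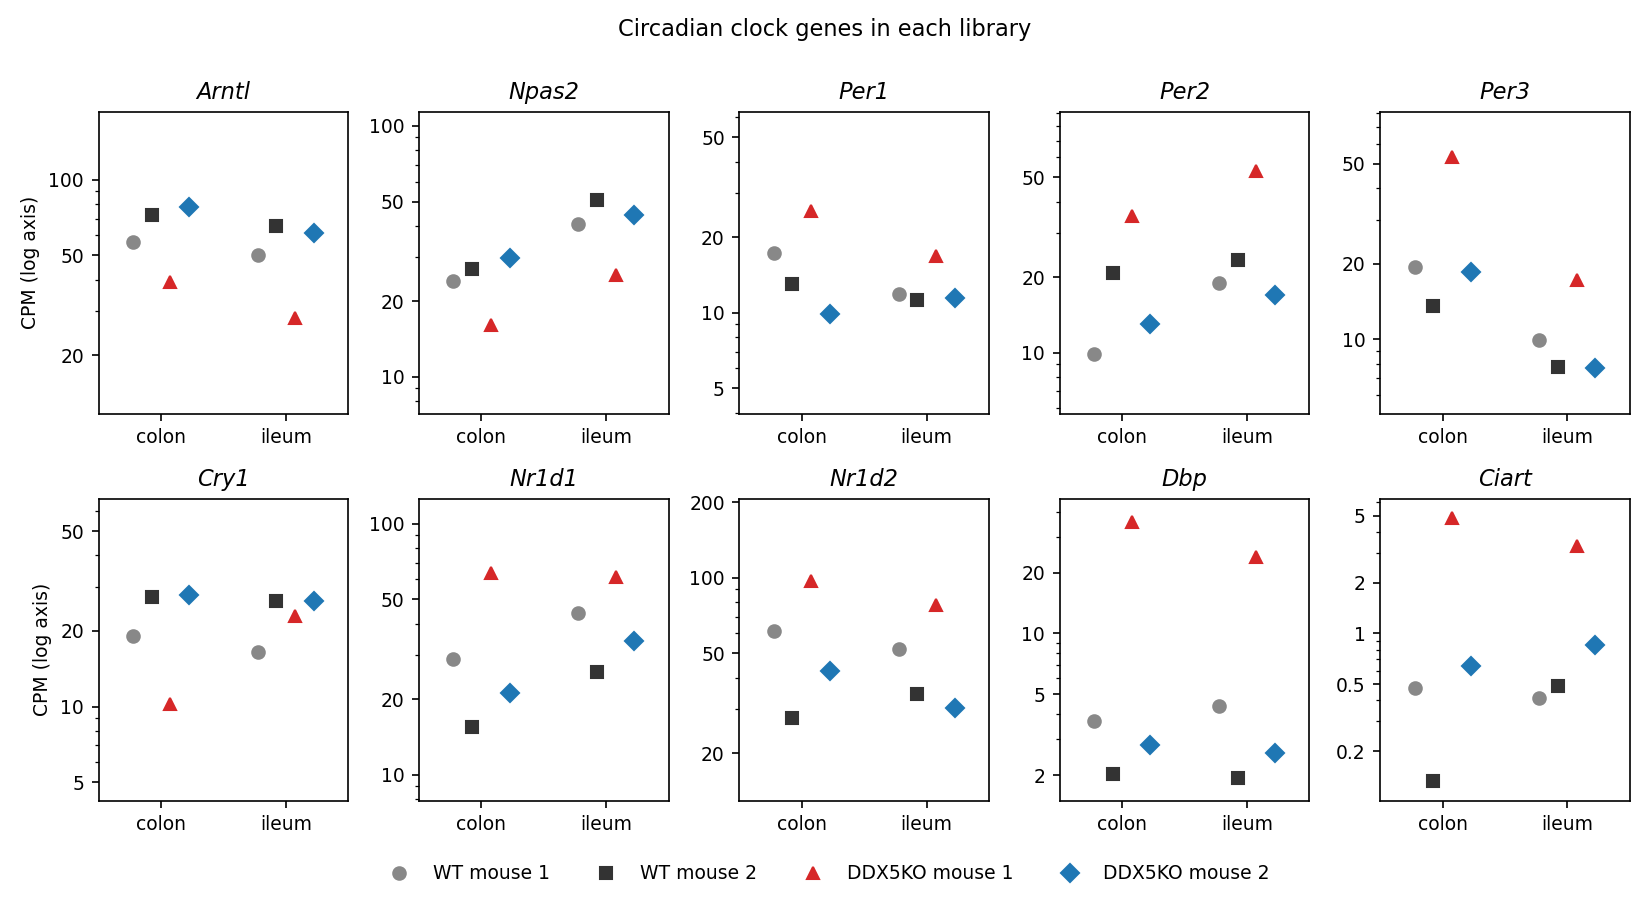
Level of each of the 10 clock genes in the 8 libraries, in CPM on a log axis whose range differs between panels, with the colon at the left and the ileum at the right of each panel and 1 point per mouse. DDX5KO mouse 1 (red triangles) is lowest for Arntl and Npas2 and highest for the Per, Nr1d, Dbp and Ciart genes in both tissues, and lies between the WT mice for Cry1 in the ileum.

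The promoter windows of RefSeq (GRCm38.p6, 250 bases before to 50 after each start) matched 9 of the members, all but Per2, in 11 windows. An E-box was searched as CACGTG, which reads the same on both strands, a D-box as TTATGTAA or TTACGTAA, and the half-site bound by REV-ERB receptors as AGGTCA, the last 2 elements on both strands. The E-box was found for Ciart, Cry1 and Per1, and 7.15% of all 32851 windows hold one. Ciart holds 3, as do 29 windows, 0.088% of all. The D-box was found for Per3 alone, in 2 copies, against 1.06% of windows with at least 1 and 0.0244% with at least 2. The half-site was found for Arntl, Nr1d2 and Per1, against 16.3% of windows. A match is a description of these letters only. Stretches of 4 members and of Tef, a paralogue of Dbp described below, are given 5′ to 3′ on the strand of the gene. Matches to the letters searched are in capitals, and binding to them was not measured.
Ciart, 3 E-boxes, chr3:95882252-95882359, - strand: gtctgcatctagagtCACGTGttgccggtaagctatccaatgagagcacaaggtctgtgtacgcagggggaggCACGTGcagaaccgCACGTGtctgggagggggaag
Cry1, E-box, chr10:85185094-85185129, - strand: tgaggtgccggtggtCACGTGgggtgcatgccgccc
Per1, E-box, chr11:69098768-69098803, + strand: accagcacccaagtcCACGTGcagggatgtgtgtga
Tef, E-box, chr15:81811261-81811296, + strand: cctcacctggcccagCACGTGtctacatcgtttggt
Per3, 2 D-boxes, chr4:151044801-151044885, - strand: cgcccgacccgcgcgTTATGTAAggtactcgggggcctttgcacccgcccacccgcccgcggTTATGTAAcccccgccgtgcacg
Of the genes shown, Ciart, Per1, Tef and Per3 were highest in DDX5KO mouse 1 in both tissues, and Cry1 was lowest there in the colon. Dbp, Nr1d1 and Npas2 held none of the 3 elements in their windows, and Dbp and Nr1d1 were highest and Npas2 lowest in that mouse. Whether the matches bear on these levels was not tested.

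Per length of transcript, the activators, the REV-ERB genes and Cry1 were above the period genes in WT IECs, and Ciart was lowest. Dbp was below the period genes in the colon and beside Per3 in the ileum. On the scale of CPM per kilobase of exon, WT colon had Arntl at 8.57 ± 1.49 (SD, n = 2), Nr1d2 at 8.21 ± 4.38, Nr1d1 at 7.24 ± 3.09, Cry1 at 6.97 ± 1.76 and Npas2 at 5.32 ± 0.440. Per1 followed at 2.68 ± 0.533, Per2 at 2.61 ± 1.31, Per3 at 1.71 ± 0.422, Dbp at 0.952 ± 0.390 and Ciart at 0.134 ± 0.107. The 2 values of neighbours in this order overlapped down to Cry1, and again from Per1 to Per3, but not between Cry1 and Npas2, Npas2 and Per1, Per3 and Dbp or Dbp and Ciart. WT ileum had Nr1d1 at 11.3 ± 4.30, Npas2 at 9.52 ± 1.46, Nr1d2 at 7.98 ± 2.30, Arntl at 7.69 ± 1.41, Cry1 at 6.43 ± 2.07 and Per2 at 3.61 ± 0.544 CPM per kilobase. Per1 (2.06 ± 0.0838), Dbp (1.06 ± 0.577), Per3 (0.923 ± 0.162) and Ciart (0.199 ± 0.0220) were lower. In the ileum neighbours overlapped from Nr1d1 to Cry1 and between Dbp and Per3. No test of this order was made.

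Whether the loss of DDX5 changed the clock genes was tested within each tissue in a fit that held the replicate number as a block. No member passed an adjusted p of 0.05 in the colon, where 0% of the 15362 genes tested did (edgeR quasi-likelihood test, Benjamini-Hochberg adjustment). Unadjusted, 5 members and 1836 genes had p under 0.05, and DESeq2 with the same terms called 0 members and 117 genes. In the ileum 0 of the 9 members tested passed, beside 98 genes or 0.697% of 14068. Unadjusted, 4 members and 1736 genes had p under 0.05 in the ileum, while DESeq2 called 0 members and 39 genes. Ciart did not reach the minimum count there and was not tested. The nearest was ileal Dbp, with a log2 fold change of 1.83 ± 0.37 (SE, adjusted p = 0.0566).

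The study itself called genes by an unadjusted p under 0.05 together with a log2 fold change no smaller than 0.5 in size. By that criterion 5 of 10 members were higher in DDX5KO colon, against 3.04% of genes, and 0 were lower, against 3.67%. The 5 were Ciart (log2 fold change 3.03 ± 0.44, adjusted p = 0.219), Dbp (2.08 ± 0.69, 0.368), Per3 (0.96 ± 0.25, 0.319), Nr1d1 (0.80 ± 0.19, 0.303) and Nr1d2 (0.64 ± 0.09, 0.223), all by edgeR. The filter kept colonic Ciart only through the DDX5KO libraries, with 88 and 14 counts against 9 and 3 in WT. Its place among the 5 is therefore no independent support. DESeq2 with the replicate block gave 4, since Dbp did not meet the criterion there (log2 fold change 1.88, adjusted p = 0.999986). In the ileum Dbp alone met it, against 3.87% of genes higher and 3.48% lower. The median log2 fold change of the members was 0.59 for colon and 0.28 for ileum, against -0.00042 and -0.0046 over all genes tested. Without both libraries of DDX5KO mouse 1, 0 members were higher by the criterion in either tissue and 1, Per1 in the colon, was lower, with a log2 fold change of -0.62 (adjusted p = 0.367). Leaving out WT colon replicate 2, or DDX5KO colon replicate 1 alone, also left 0 higher members in the colon, and leaving out WT colon replicate 1 left 1, in fits without the replicate block. The fits without both libraries of DDX5KO mouse 1 also held no replicate block. The replicate block itself mattered in the colon, since 2 members (Ciart and Dbp) met the criterion without it, and in the ileum, where 0 did.

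The ratios of DDX5KO to WT mouse of the same number show the difference directly. For mouse number 1 the colonic log2 ratio of CPM was above 0.5 in size for 10 of 10 members, 7 positive and 3 negative (Arntl, Npas2 and Cry1), from -0.90 for Cry1 to 3.36 for Ciart. For mouse number 2 it was above 0.5 in size for 3 of 10, with 2.27 for Ciart, 0.63 for Nr1d2 and -0.67 for Per2. Dbp had a ratio of 3.28 for number 1 and 0.48 for number 2. In the ileum 8 of 10 ratios for number 1 and 1 of 10 for number 2 (Ciart, 0.82) were above 0.5 in size. Values for all 13567 genes were taken on log2 CPM with a prior count of 2, which shrinks ratios of low counts. Their median size was 0.19 in colon and 0.23 in ileum for number 1, and 0.15 and 0.20 for number 2. On that scale 7 of 10 members and 5.56% of genes exceeded 0.5 on the same side in both tissues for number 1. For number 2, 1 of 10 members and 3.73% of genes did. Arntl, Npas2, Per1, Per2 and Cry1 changed sign between the numbers in the colon, and Per2, Per3, Cry1 and Nr1d2 in the ileum. Nr1d1 was the member with the closest pair in the ileum, at 0.47 and 0.42, and Nr1d2 in the colon, at 0.66 and 0.63. The numbers are those of the labels, and no source used here says that they mark littermates.

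**Figure D2:**
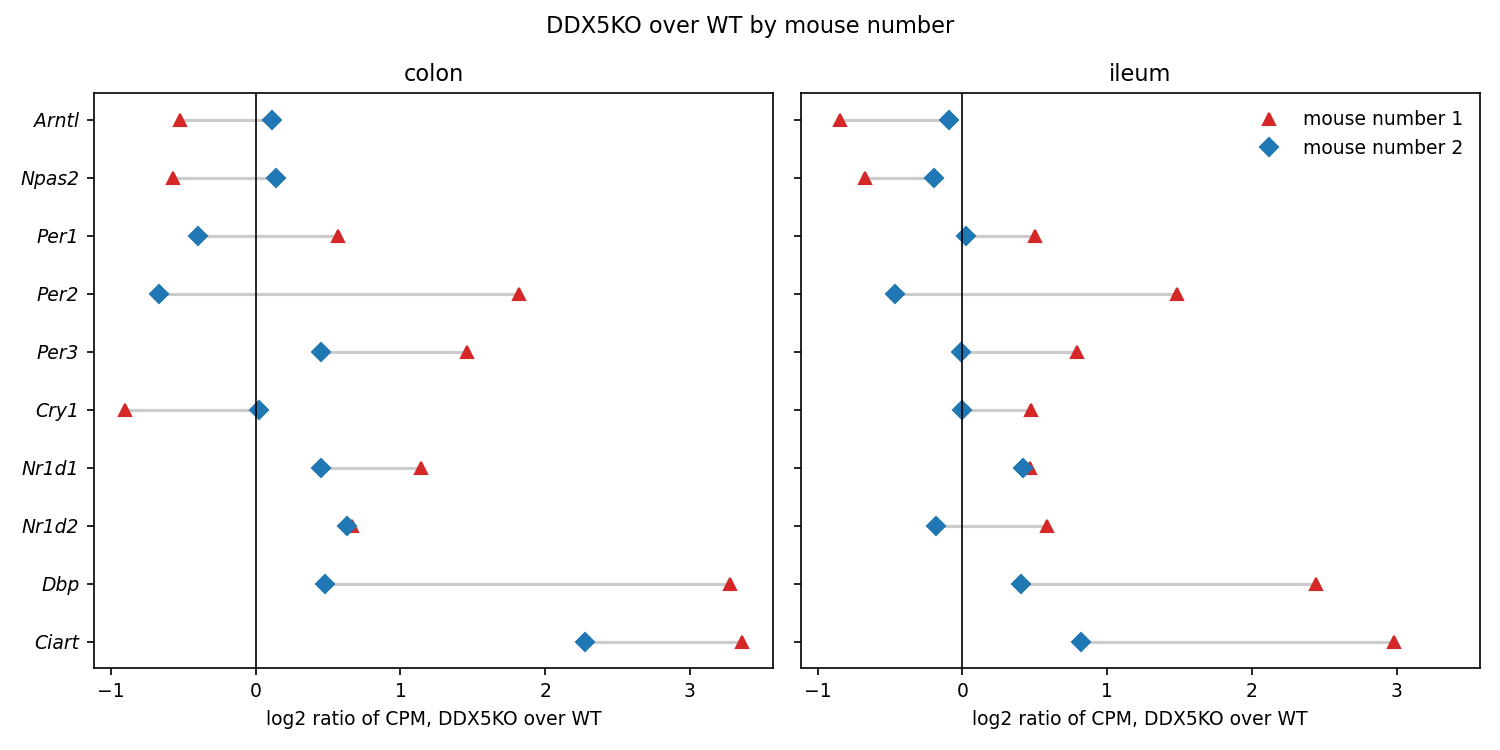
Log2 ratio of CPM, DDX5KO over WT, of each clock gene for mouse number 1 (red triangles) and mouse number 2 (blue diamonds), in the colon at the left and the ileum at the right, with a grey line joining the 2 ratios of a gene. Ratios of number 1 reach 3.36 and 2.98 for Ciart and 3.28 and 2.45 for Dbp, while those of number 2 stay within 0.82 in size apart from Ciart in the colon, at 2.27.

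DDX5KO mouse 1 had the highest or lowest level of the 4 mice for 10 of 10 members in the colon (62.9% of 13567 genes tested in both tissues) and for 9 of 10 in the ileum (62.2%). The 9 were on the same side in both tissues, 7 highest and 2 lowest, against 28.5% of all genes. WT mouse 2 was at the same extreme in both tissues for 2 members, and WT mouse 1 and DDX5KO mouse 2 for 0. These counts were made after the libraries had been seen and carry no test.

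A model with a term for each mouse and one for tissue asked whether mice of 1 genotype differed, with colon and ileum as the 2 libraries of a mouse. Dbp passed (adjusted p = 0.0202, edgeR quasi-likelihood F test over both genotypes), 1 of 10 members and 1 of 8 genes, 0.0494% of the 16178 tested. All 10 members had an unadjusted p under 0.05, as did 1534 genes. DESeq2's likelihood ratio test called 8 of 10 members, all but Cry1 and Ciart, and 154 genes. The DDX5KO mice were then compared alone, a choice made after the data had been seen. Dbp and Per2 were lower in mouse 2 than in mouse 1 and Arntl was higher, 3 of 10 members beside 24 genes or 0.148%. The log2 fold changes were -3.46 ± 0.23 for Dbp (SE, adjusted p = 0.00633), -1.52 ± 0.18 for Per2 (adjusted p = 0.0443) and 1.05 ± 0.12 for Arntl (adjusted p = 0.0366). Dbp ranked first of all genes by p. Of the 7 others, Per1 was 2.59 times as high in the colon and 1.47 times as high in the ileum of mouse 1 as of mouse 2. The log2 fold changes of the rest, in the direction of mouse 2 relative to mouse 1, were -2.52 for Ciart, -1.36 for Per3, -1.26 for Nr1d2, -1.25 for Nr1d1, 0.77 for Cry1 and 0.84 for Npas2, with adjusted p from 0.0575 to 0.337 (edgeR) over these and Per1, and an unadjusted p under 0.05 for each. Members had a median log2 fold change of 1.25 in size, and all genes one of 0.20. Of all genes tested, 2214 had an unadjusted p under 0.05 (edgeR).

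Between the WT mice the members lay closer. None passed (0% of 16178 genes, edgeR), 5 of 10 and 593 genes had an unadjusted p under 0.05, and DESeq2 called 0 members. The 5 were Nr1d2 at -0.86 ± 0.18, Nr1d1 at -0.85 ± 0.19, Dbp at -1.04 ± 0.25, Per2 at 0.67 ± 0.18 and Arntl at 0.37 ± 0.11, as log2 fold changes of mouse 2 relative to mouse 1. Their median size over the 10 members was 0.63, against 0.13 for all genes. Dbp, Nr1d1, Nr1d2 and Arntl differed in the same direction as between the DDX5KO mice, with mouse 1 higher for the first 3, and Per2 in the other direction. The difference between the WT and the DDX5KO contrast was not tested. P-values here measure the spread between the 2 tissues of a mouse, and 2 mice per genotype do not tell mouse, harvest and cage apart. In the DDX5KO contrast and the F test over both genotypes, no member kept its call in every fit with a single library left out. The number of members called moved with the library left out, and so did the number of all genes called. Over these fits the log2 fold change between the DDX5KO mice ran from -3.72 to -3.09 for Dbp, -1.64 to -1.45 for Per2 and 0.93 to 1.19 for Arntl.

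**Figure D3:**
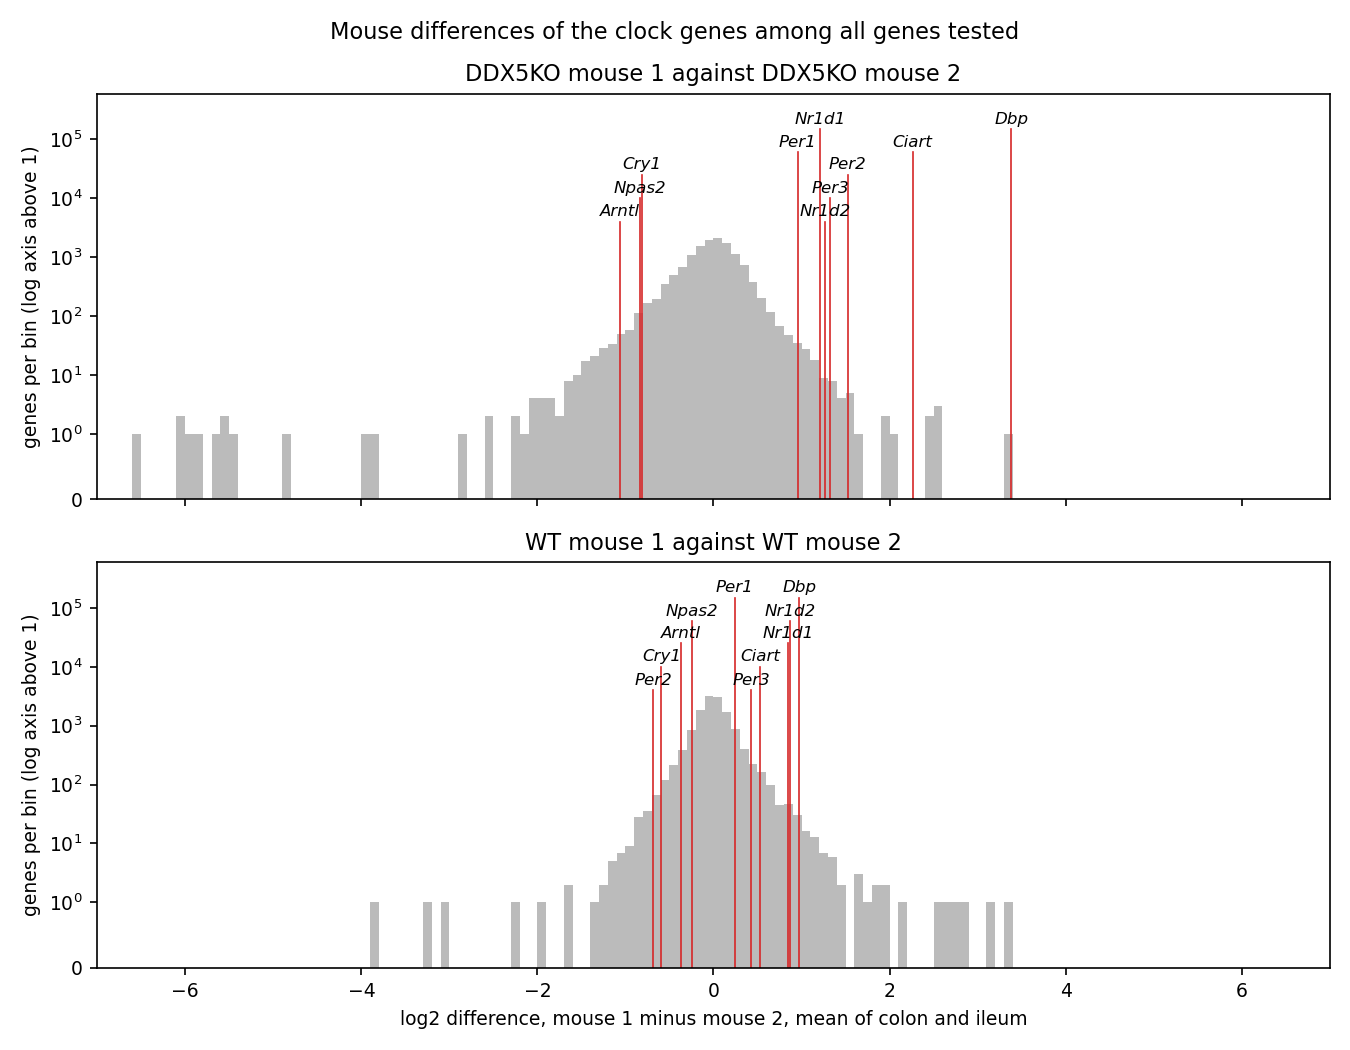
Number of genes per bin of 0.1 of the log2 difference in CPM between mouse 1 and mouse 2, averaged over colon and ileum, for the DDX5KO mice (top) and the WT mice (bottom), over 13567 genes and with a vertical axis that is logarithmic above 1. Red lines mark the 10 clock genes, which lie between -1.06 (Arntl) and 3.38 (Dbp) for DDX5KO and between -0.68 (Per2) and 0.98 (Dbp) for WT; Ciart, not tested in the ileum, is marked but not counted in the bins.

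The order held within libraries, where scaling between libraries plays no part. The count of Dbp per count of Arntl was 0.0651 and 0.0280 in WT colon and 0.910 and 0.0362 in DDX5KO colon. The ileum gave 0.0872 and 0.0297 in WT and 0.853 and 0.0419 in DDX5KO. The order of the 4 mice was the same in both tissues. Nr1d1 per Arntl ran from 0.215 to 0.513 in the colon of the 3 mice other than DDX5KO mouse 1, which had 1.63, and from 0.391 to 0.880 in their ileum, where DDX5KO mouse 1 had 2.18. Per2 per Arntl was 0.167 to 0.286 in the same 3 colons and 0.889 in DDX5KO mouse 1, and 0.276 to 0.375 in the ileum against 1.89. On log2 CPM the difference between the DDX5KO mice had the same sign in colon and ileum for 10 of 10 members and for 58.8% of 13567 genes. It exceeded 0.5 in both tissues for 9 of 10 members, all but Cry1, and for 4.11% of genes. The WT mice gave 9 of 10 with the same sign (55.8% of genes) and 4 of 10 above 0.5 in both (1.82%).

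**Figure D4:**
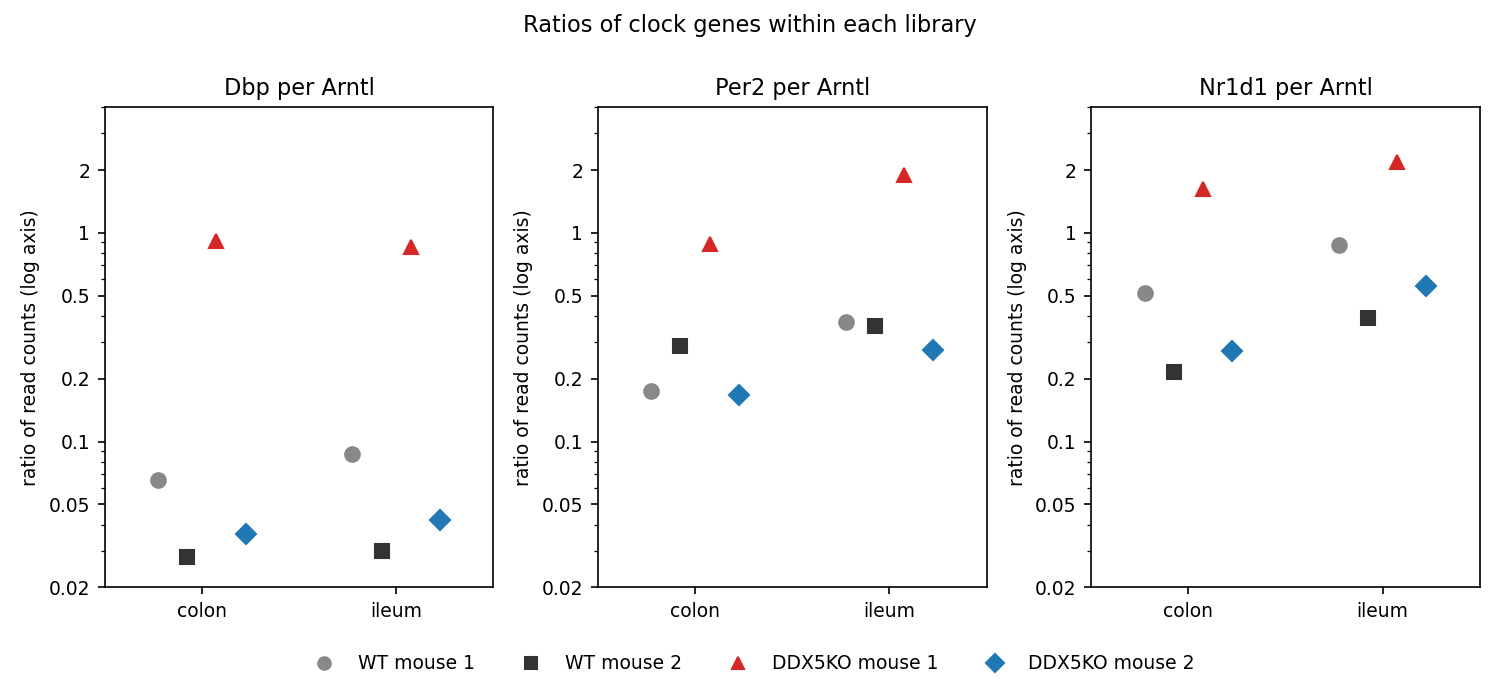
Read count of Dbp, Per2 and Nr1d1 divided by that of Arntl in the same library, on a log axis, by tissue and with 1 point per mouse. DDX5KO mouse 1 has the highest ratio in all 6 sets of 4 points, at 0.910 and 0.853 for Dbp, 0.889 and 1.89 for Per2 and 1.63 and 2.18 for Nr1d1.

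Colon and ileum of the same genotype were then compared. In WT mice 0 of 10 members passed between ileum and colon (edgeR, 8 libraries, no block), while 34.2% of the 16178 genes did. Unadjusted, 1 member and 7078 genes had p under 0.05. In DDX5KO mice Per3 passed, lower in the ileum by a log2 fold change of -1.51 ± 0.51 (SE, adjusted p = 0.0490), against 35.3% of genes. With the mouse as replicate block, 3 of 10 members passed in each genotype, near the share of all genes, which was 37.7% in WT and 37.8% in DDX5KO mice. In WT mice these were Npas2 (0.83, adjusted p = 0.00108), Nr1d1 (0.66, 0.0249) and Per3 (-0.89, 0.00278). In DDX5KO mice they were Npas2 (0.61, adjusted p = 0.00490), Per3 (-1.47, 0.000354) and Arntl (-0.41, 0.0158). Npas2 was higher and Per3 lower in the ileum than in the colon of each of the 4 mice. The interaction of tissue and genotype passed for 0 of 10 members (0.0124% of genes, edgeR). Unadjusted, 0 members and 755 genes had p under 0.05 for it, and DESeq2 called 0 members and 17 genes. The estimate for Dbp was -0.72 ± 1.67 (SE) on the log2 scale. The call for Per3 in DDX5KO mice was lost when any library but DDX5KO colon replicate 2 or DDX5KO ileum replicate 1 was left out, and 4 members passed without DDX5KO colon replicate 2.

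Among 21 other genes of the clock, 19 were tested in each tissue and 0 passed an adjusted p of 0.05 for genotype in either (edgeR), beside the 0% and 0.697% of all genes given above. By the study's criterion 1 was higher and 3 lower in the colon, against 3.04% and 3.67% of all genes. In the ileum 0 were higher and 2 lower, against 3.87% and 3.48%. Tef, which encodes a D-box activator like Dbp, had a colonic log2 fold change of 1.20, and Nfil3, which encodes a repressor at the same D-boxes, -1.37 and -0.75 in colon and ileum. Fbxl21, a ubiquitin ligase subunit for cryptochromes, had -1.72 and -0.69, and Csnk1e, a kinase of PER proteins, -0.62 in the colon. Colonic Fbxl21 rested on only 12 and 16 counts in WT and 4 and 4 in DDX5KO. The filter kept it there only through the WT libraries, so its place among the 3 lower genes is no independent support. Between the DDX5KO mice 1 of 20 passed, against 0.148% of all genes. It was Tef, with -2.46 ± 0.22 (adjusted p = 0.0124) in mouse 2 relative to mouse 1. Its levels were 17.9 and 10.9 CPM in WT colon, 76.6 and 12.7 CPM in DDX5KO colon, 30.5 and 17.1 CPM in WT ileum and 71.4 and 14.6 CPM in DDX5KO ileum, with DDX5KO mouse 1 highest in each tissue. Nfil3 was lowest in DDX5KO mouse 1, at 2.76 CPM in the colon against 8.75 to 15.5 CPM in the other mice, and at 8.99 CPM in the ileum against 22.2 to 25.4 CPM. It did not pass between the DDX5KO mice (1.44 ± 0.24, adjusted p = 0.0858). Between WT tissues 5 of the 20 tested passed as higher in the ileum and 1 as lower, no larger a share than the 34.2% of all genes. They included Fbxl21 (log2 fold change 3.39), Usp2 (1.47) and Csnk1a1 (0.46), higher in the ileum, and Btrc (-0.51), lower. Between DDX5KO tissues 3 of 20 passed as higher and 2 as lower, against 35.3% of all genes. They included Fbxl21 (4.42) and Usp2 (1.53), higher in the ileum, and Btrc (-0.50), lower. Hlf passed in both, with 0 counts in each of the 4 colon libraries and 4 to 10 counts in the ileum libraries, so its fitted fold change is not given. Clock, the usual partner of BMAL1, ran from 151 to 177 CPM in the colon and from 137 to 173 CPM in the ileum.

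The genes most like Dbp and Arntl over the 8 libraries were found by the root mean square difference of log2 CPM, centred within each tissue, among 13566 other genes tested in both tissues. Tef was the nearest gene to Dbp, at 0.53, and the next 4 that are not members were Dnajb3 (0.78), Mcpt1 (0.93), Gm24270 (0.99) and Phlda3 (0.99). Per3, Nr1d1, Nr1d2 and Per2 held places 3, 4, 6 and 28 of that order. Npas2 was the nearest gene to Arntl, at 0.10, and the next 5 that are not members were Gm35315 (0.143), Nol4l (0.144), Ugt1a6b (0.146), Cenpl (0.149) and A4gnt (0.151). Of the genes near Dbp, Mcpt1 was at most at 10.7 CPM, Phlda3 at 8.55 CPM and Dnajb3 at 8.34 CPM in any library.

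Genes that respond to glucocorticoids, hormones with a daily rhythm of their own, were listed as a set of 6. For genotype, 1 of 5 tested passed in the ileum and 0 of 6 in the colon (edgeR), against 0.697% and 0% of all genes. The summed level of the 6 was highest in DDX5KO mouse 1. It was 540 CPM in the colon against 417 to 484 CPM, and 419 CPM in the ileum against 193 to 304 CPM. The single genes did not all follow the sum. Only Klf9 and Zbtb16 in the colon, and Fkbp5, Sgk1 and Klf9 in the ileum, were highest in that mouse. Tsc22d3 was lowest there in the colon, at 47.2 CPM against 52.3 to 63.5 CPM, and Dusp1 in the ileum, at 29.0 CPM against 29.3 to 30.2 CPM. Fkbp5, an immunophilin gene induced through the glucocorticoid receptor, was at 26.0 and 42.1 CPM in WT ileum and 127 and 112 CPM in DDX5KO ileum, a log2 fold change of 1.85 ± 0.20 (adjusted p = 0.00328). Its colon values were 86.1 and 89.9 CPM in WT and 130 and 143 CPM in DDX5KO, with 0.63 ± 0.08 (adjusted p = 0.173). Between the DDX5KO mice it differed by -0.06 ± 0.34 (adjusted p = 0.965). By the study's criterion 2 of the 6 were higher in DDX5KO colon, against 3.04% of all genes. They were Fkbp5 and Zbtb16, the latter with 1.36 ± 0.39 (adjusted p = 0.333). Between the DDX5KO mice 0 of the 6 passed, with 2 under an unadjusted 0.05, as were 2214 of all genes. Between tissues 3 of 6 were lower in WT ileum than in WT colon (Fkbp5, Dusp1 and Zbtb16). In DDX5KO mice 3 of 6 were lower in the ileum (Klf9, Dusp1 and Zbtb16). Of all genes, 34.2% and 35.3% passed these comparisons, in either direction.

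Markers of other cell types moved with DDX5KO mouse 1 in part, and their part in the clock gene values was not tested. The 6 lymphocyte markers, each detected in every library, summed to less in both DDX5KO colons than in both WT colons. The sum was 6.51 CPM in the colon of DDX5KO mouse 1 and 18.5 CPM in that of the other DDX5KO mouse. The WT colons had 45.5 and 35.2 CPM. By the study's criterion 4 of the 6 were lower in DDX5KO colon, against 3.67% of all genes, with a median log2 fold change of -1.82 over the 6. After adjustment 0 passed (edgeR). In the ileum 0 of the 6 met the criterion, and DDX5KO mouse 1 had the highest sum of 60.2 to 105 CPM. Goblet cell markers (3 of 3 detected in all libraries) summed to 13348 CPM in its colon against 26067 to 29722 CPM elsewhere, and to 18985 CPM in its ileum, the highest of 16203 to 18985 CPM. Markers of cycling crypt cells (4 of 4 detected) were lowest in DDX5KO mouse 1 in both tissues, at 314 CPM in the colon against 455 to 485 CPM and at 1022 CPM in the ileum against 1335 to 1432 CPM. In such bulk samples fewer cells of a type and less RNA per cell cannot be told apart. Epithelial markers (5 of 5 detected) were highest in DDX5KO mouse 1 in both tissues, at 9066 CPM in the colon against 7845 to 8459 CPM and at 14786 CPM in the ileum against 10847 to 12265 CPM. The B and plasma cell list summed to 1.10 to 7.43 CPM over the 8 libraries, the myeloid list to 1.21 to 10.6 CPM and that of enteric glia and neurons to 0.281 to 1.31 CPM. Paneth cell markers were at 2.46 to 3.62 CPM in the colon and 4844 to 7486 CPM in the ileum. Cd79a, Mzb1, Adgre1, Acta2 and S100b were each at 0 in at least 1 library, and no marker was at 0 in all 8.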

How the data were processed

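Per the labels and the study's methods, stranded libraries of ribosome-depleted RNA were read as 100-base pairs, aligned by the authors to mm10 with STAR 2.6.1a and counted over GENCODE vM19 exons with featureCounts, whose strand setting is not given in the sources used here. The deposited tables hold these raw counts per gene, which were used for every test. Their normalized signal, the authors' counts divided by DESeq2 1.18.1 size factors, and the authors' own fold changes and p-values were not used. A gene listed in 1 table only was counted as 0 in the other. Groups and replicate numbers are those of the labels, and the mouse of each library was matched by hand through mouse numbers in the study's supplement.

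Genes were kept by filterByExpr with a minimum count of 10 and tested with edgeR 4.0.16 (quasi-likelihood, TMM, Benjamini-Hochberg) in R 4.3.3. Genotype fits held 4 libraries and a replicate block, since the study used a harvest covariate. Tissue and interaction fits held 8 libraries. Standard errors are the log2 fold change divided by the root of F. Same-numbered libraries deviated together by a correlation of 0.0056 in the colon and 0.24 in the ileum, so the numbers were not shown to pair the mice. DESeq2 1.42.0, other filters and scalings and each library left out were alternatives. Fits were tested on simulated counts. The members, the other lists and the rule for naming genes (all members, other listed genes past a threshold, 5 nearest non-members of Dbp and of Arntl) were chosen with earlier results of these data known. Positions are from GENCODE vM21 on GRCm38, where all 10 identifiers had the version in the files. Some of the other clock genes are not reported here.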

Additional observations from a re-analysis of the deposited data

How the results depend on the processing

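In fits without the replicate block, the direction of the genotype difference rested on DDX5KO mouse 1 for most members. Without both of its libraries, the colonic log2 fold changes turned to 0.27 for Arntl, 0.22 for Npas2, -0.62 for Per1, -0.24 for Per2, 0.25 for Cry1, -0.065 for Nr1d1 and -0.052 for Nr1d2, and the ileal ones to 0.082 for Arntl, -0.024 for Per1, -0.32 for Per2, -0.22 for Per3, -0.055 for Nr1d1, -0.52 for Nr1d2 and -0.35 for Dbp. Ciart (1.12), Per3 (0.18) and Dbp (0.0015) in the colon and Cry1 (0.30) and Npas2 (-0.048) in the ileum kept their sign. These fits set DDX5KO mouse 2 against both WT mice. Against WT mouse 2 alone, the log2 ratio kept the sign of the main fit for Nr1d1 (0.45 in colon, 0.42 in ileum) and colonic Nr1d2 (0.63). It also did so for ileal Dbp (0.40), Per1 (0.03) and Arntl (-0.09). For the other reversed values above, this ratio was reversed too. Of 30 reversals among the members, 14 in the colon and 14 in the ileum came from leaving out 1 or both libraries of DDX5KO mouse 1. The others were Arntl without WT colon replicate 2 and Cry1 without WT ileum replicate 1. With single libraries left out, the colonic values ran from -0.72 to 0.27 for Arntl, -0.66 to 0.22 for Npas2, -0.62 to 0.76 for Per1, -0.24 to 1.27 for Per2, -1.19 to 0.25 for Cry1, -0.068 to 1.52 for Nr1d1 and -0.054 to 1.33 for Nr1d2. The ileal values ran from -1.03 to 0.080 for Arntl, -0.025 to 0.56 for Per1, -0.32 to 1.34 for Per2, -0.22 to 0.97 for Per3, -0.10 to 0.58 for Cry1, -0.052 to 0.90 for Nr1d1, -0.52 to 0.86 for Nr1d2 and -0.35 to 2.88 for Dbp. Between the DDX5KO mice no member changed direction under any alternative run.

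Counts of members called moved as follows. For genotype, adjusted calls ran from 0 to 1 in the colon with single libraries left out (Ciart without DDX5KO colon replicate 2), and were 2 in the ileum with no filter on low counts (Dbp and Ciart). By the study's criterion the higher members in the colon numbered 2 with no replicate block, 1 by DESeq2 without it and 4 with it, 3 in a fit of all 8 libraries without it, 0 without DDX5KO mouse 1 and 0 to 5 with single libraries left out, and the lower ones 1 without DDX5KO mouse 1 and 0 to 1. In the ileum the higher ones numbered 0 with no replicate block in edgeR, DESeq2 and the fit of 8 libraries, 0 without DDX5KO mouse 1, 3 with no filter, 2 with a mean of at least 10 counts, 2 without the repeat-like genes and 0 to 3 with single libraries left out, and the lower ones 0 to 2. Between WT tissues the count was 3 with the mouse as replicate block, 1 by DESeq2, 2 without DDX5KO mouse 1, 3 with no filter and 0 to 1 with single libraries left out. Between DDX5KO tissues it was 3 with the block, 0 by DESeq2, RLE size factors, a mean of at least 10 counts or without the repeat-like genes, 4 with no filter and 0 to 4. Between mice it was 8 by DESeq2 in both the F test and the DDX5KO contrast, beside 154 and 222 genes. With no filter it was 10 in both, beside 679 and 678 genes, and 4 for the WT mice, beside 118 genes. With single libraries left out the count moved in each of these comparisons, and so did that of all genes called. The interaction gave 0 members under every alternative run, the mouse as replicate block included. Leaving out a library can leave an arm with 1, which is then assumed to vary like the other groups. Of the other results under the alternatives, 100 counts stayed within 1.5 times the main one, 314 single-gene values kept direction and side, 24 passed in addition and 9 no longer passed. The cause of these shifts was not tested. Depth limits Ciart, which rests on 3 to 88 counts per library.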
